A study of Homo sapiens with 9 samples.

Results

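The Rab small GTPases of Caco-2 cells, a human colon adenocarcinoma line, were examined in polyadenylated RNA in 9 libraries from cells that had all received lovastatin. Members were the protein-coding genes named RAB followed by a number (RAB1A to RAB44), taken by gene symbol and not by measured change. They were chosen with earlier results of these data known. The count table named 27671 genes. It held 62 Rab symbols, 3 of which (RAB6C, RAB39A and RAB44) had fewer than 15 counts in all and were dropped, which left 59 members. Of these, 51 passed the filter on low counts and were tested, and 8 did not.

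All cells were kept in aMEM with lipid-depleted fetal bovine serum and were harvested after 48 h. The first group received 10 µM lovastatin alone, the second 10 µM lovastatin with 10 µM SGA360, and the third 10 µM lovastatin with 10 µM SGA315, with 3 libraries in each. The study names SGA360 and SGA315 as selective ligands of AHR, the aryl hydrocarbon receptor, a transcription factor switched on by small molecules. Lovastatin was present in every library, so its own effect on the Rab genes was not measured here. The labels number the replicates but do not call them separate cultures. The p-values therefore rest on library-to-library spread that may be partly or wholly technical, and all libraries come from 1 cell line.

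Rab proteins are membrane-bound switches that direct vesicle traffic. Each cycles between a GTP-bound form, which recruits effectors such as tethers and motor adaptors, and a GDP-bound form, with exchange factors turning it on and GTPase-activating proteins turning it off. To sit on a membrane, most Rabs must carry geranylgeranyl groups, isoprenoid lipids made in the mevalonate pathway that lovastatin blocks, and these are attached by Rab geranylgeranyl transferase with the help of a Rab escort protein. In intestinal epithelium Rabs are best known for apical sorting, recycling of junction proteins and delivery of brush-border membrane.

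Library totals over named genes lay between 12343060 and 16882412 counts, at which 3 counts equal 0.178 to 0.243 CPM (counts scaled by library size). The fitted variation between replicates was 2.15%, expressed as a coefficient of variation. The AHR target CYP1A1 stood at 44.6 ± 3.82 CPM with lovastatin alone, 5.44 ± 0.401 CPM with SGA360 and 1050 ± 29.9 CPM with SGA315 (SD, n = 3). The epithelial markers EPCAM, CDH1, VIL1, KRT8, KRT18 and CDX2 were present in all libraries, and KRT20 was near 0 with 18 counts in all. The first 5 of these were lower with both ligands, as in EPCAM at 589, 442 and 404 CPM in the same order. CDX2 went the other way, at 75.8, 80.1 and 117 CPM. It was called higher with SGA315 (log2 fold change 0.63) and was not called with SGA360 (0.08). Of 7 markers of other cell types, PTPRC, COL1A2 and DES were near 0 (37, 1 and 21 counts in all), CD68, PECAM1 and PDGFRB were under 10 CPM in every group, and COL1A1 fell from 44.0 CPM to 30.1 and 21.3 CPM. Their summed level was 57.7 to 61.2 CPM with lovastatin alone, 42.4 to 46.9 CPM with SGA360 and 34.0 to 37.1 CPM with SGA315. Without COL1A1 it was 14.4 to 16.2, 13.9 to 16.0 and 13.2 to 16.0 CPM. The part of these shifts in the Rab results was not tested.

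With SGA360, 23 of the 51 tested Rab genes were higher than with lovastatin alone, 11 were lower and 17 were not called (edgeR quasi-likelihood test, adjusted p under 0.05 over all 14680 genes). Of all genes, 62.8% were called in this comparison, 31.4% higher and 31.4% lower. With SGA315, 22 Rab genes were higher, 13 lower and 16 not called, beside 69.2% of all genes called, 36.0% higher and 33.2% lower. The share of Rab genes called, 66.7% and 68.6%, was thus near the background of each comparison. In bulk RNA, fewer cells with a transcript and less of it per cell cannot be told apart. Their median log2 fold change was 0.11 with SGA360 and 0.15 with SGA315, beside 0.02 and 0.04 over all genes. The balance of directions depended on the scaling. Scaling to library totals moved the median of all genes to 0.14 and 0.16, and the higher share of called Rab genes from 67.6% to 75.0% with SGA360 and from 62.9% to 74.4% with SGA315. In the whole table the same change of scaling moved the higher share from 50% to 67.4% and from 52.0% to 65.6%.

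Most of these changes were small. A test against a change of 1.5-fold (edgeR glmTreat) left 1 Rab gene higher (RAB3C) and 1 lower (RAB3B) with SGA360, where 5.69% of all genes passed it, 2.92% higher and 2.77% lower. It left 2 higher (RAB3C and RAB37) and 1 lower (RAB3B) with SGA315, where 10.8% passed, 5.63% higher and 5.13% lower. RAB3C passed the filter on low counts only through the ligand libraries, so it could be tested only because it was higher there. Both ligand comparisons share the 3 lovastatin libraries, so their results are not independent. Only RAB15 was called in opposite directions with the ligands, higher with SGA360 and lower with SGA315. That is 1.96% of the tested Rab genes, beside 0.96% of all genes in this pattern and 0.96% in the reverse one. Its call with SGA315 (log2 fold change -0.08) did not hold under some alternatives, given with the endosomal Rabs.

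**Figure D1:**
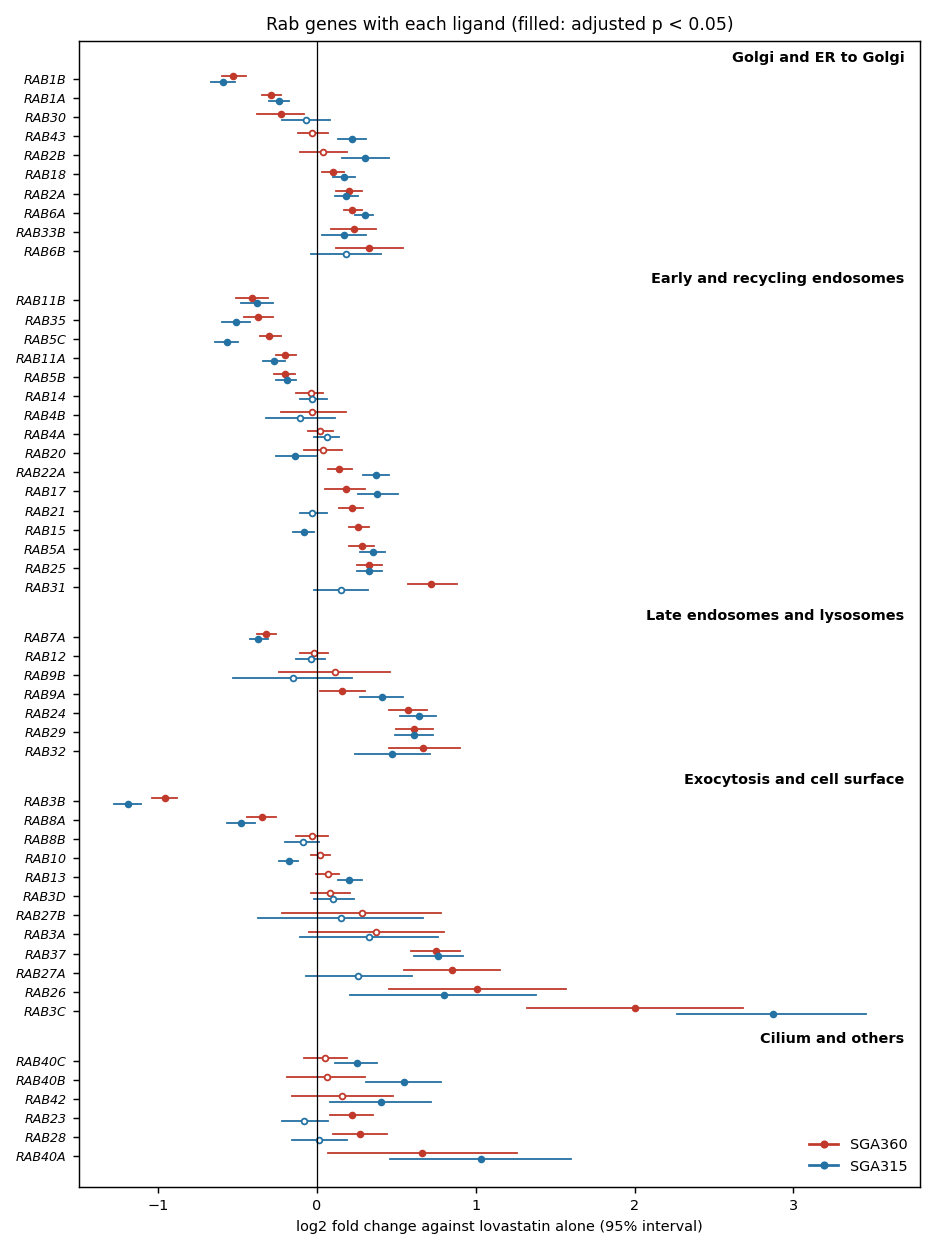
Log2 fold change of each of the 51 tested Rab genes against lovastatin alone (horizontal axis) with SGA360 (red) and SGA315 (blue), by cellular role. Points are fitted values, lines are 95% intervals, and filled points have an adjusted p under 0.05. RAB3C lies far to the right and RAB3B far to the left with both ligands, while most other genes lie within 1 log2 unit of no change. RAB3C could be tested only because it was higher in the ligand libraries.

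The RAB3 group, which acts in regulated exocytosis, held both the largest rise and the largest fall among the Rab genes. RAB3B, a Rab of secretory vesicles also found in epithelia, stood at 92.3, 90.5 and 91.2 CPM with lovastatin alone. It read 47.2, 47.0 and 46.8 CPM with SGA360 and 40.7, 38.0 and 41.1 CPM with SGA315. The 3 groups did not overlap, and the libraries of a group lay close together. The fall was 1.94-fold with SGA360 (log2 fold change -0.96, SE 0.0421, edgeR adjusted p = 1.15e-30) and 2.29-fold with SGA315 (log2 fold change -1.19, SE 0.0443, edgeR adjusted p = 5.77e-35). Tested directly, RAB3B was higher with SGA360 than with SGA315 by 0.23 on the log2 scale (SE 0.0495, edgeR adjusted p = 7.31e-05).

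RAB3C, a close relative best known from neurons and endocrine cells, was scarce. It read 0.471, 0.825 and 0.259 CPM with lovastatin alone, 2.65, 2.08 and 1.10 CPM with SGA360, and 2.69, 4.06 and 4.38 CPM with SGA315. Every ligand library was above every lovastatin library, and the ligand groups did not overlap each other. The rise was 4.0-fold with SGA360 (log2 fold change 2.00, 95% interval 1.32 to 2.68, edgeR adjusted p = 5.92e-07) and 7.29-fold with SGA315 (log2 fold change 2.87, 95% interval 2.27 to 3.46, edgeR adjusted p = 2.37e-13). The level with SGA360 was below that with SGA315 (log2 fold change -0.87, SE 0.210, edgeR adjusted p = 0.000493). At these levels the libraries hold few reads of the gene, 273 in all 9. RAB3C passed the filter on low counts, set at 0.678 CPM in 3 libraries, through the ligand libraries, since 1 lovastatin library reached it, so it could be tested only because it was higher there. RAB26, described with the granule Rabs, was the other such member, with 2 lovastatin libraries reaching the minimum. The 2 remaining isoforms, named after their values were seen, were not called with either ligand. RAB3D stood at 28.3 ± 1.51, 30.0 ± 1.83 and 30.4 ± 1.14 CPM, and RAB3A at 1.93 ± 0.576, 2.51 ± 0.231 and 2.43 ± 0.352 CPM, with lovastatin alone, SGA360 and SGA315 (SD, n = 3). Scaled to totals, RAB3D was called with both ligands (log2 fold change 0.20 and 0.23) and RAB3A with SGA360 (0.49). RAB3A was also called with both ligands without lovastatin replicate 1 (0.62 and 0.58).

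The 250 bases upstream of the annotated start were read from RefSeq (GRCh38.p14) for these opposite movers and for a pair of genes that rose with both ligands, RAB24 and RAB6A, to show where letters of an AHR element lie. The authors' counts were made on another build, so no position is shared between them and the counts. Sequences run 5′ to 3′ on the gene's strand. Capitals mark matches, on either strand, to the AHR element TNGCGTG or to CACGTG, the E-box at the core of the lysosomal gene network; these motifs do not overlap in the windows shown. RAB3B is at chr1:51990701-51990950 (minus strand), RAB3C at chr5:58582825-58583074 (plus), RAB24 at chr5:177303720-177303969 (minus) and RAB6A at chr11:73761075-73761324 (minus).
RAB3B: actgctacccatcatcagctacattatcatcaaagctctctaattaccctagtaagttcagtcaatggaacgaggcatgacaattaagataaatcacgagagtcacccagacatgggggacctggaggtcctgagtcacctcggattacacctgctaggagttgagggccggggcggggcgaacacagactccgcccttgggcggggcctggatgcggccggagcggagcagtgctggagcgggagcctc
RAB3C: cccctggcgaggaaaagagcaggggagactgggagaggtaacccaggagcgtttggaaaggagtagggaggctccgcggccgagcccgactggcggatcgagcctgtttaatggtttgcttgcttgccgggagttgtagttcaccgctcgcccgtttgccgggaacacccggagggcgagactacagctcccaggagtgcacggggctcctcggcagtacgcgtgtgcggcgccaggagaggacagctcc
RAB24: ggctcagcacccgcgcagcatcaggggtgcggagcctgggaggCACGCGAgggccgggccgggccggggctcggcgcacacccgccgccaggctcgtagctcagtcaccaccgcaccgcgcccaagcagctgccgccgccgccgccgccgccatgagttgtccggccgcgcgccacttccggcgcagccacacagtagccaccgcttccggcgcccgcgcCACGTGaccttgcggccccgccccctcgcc
RAB6A: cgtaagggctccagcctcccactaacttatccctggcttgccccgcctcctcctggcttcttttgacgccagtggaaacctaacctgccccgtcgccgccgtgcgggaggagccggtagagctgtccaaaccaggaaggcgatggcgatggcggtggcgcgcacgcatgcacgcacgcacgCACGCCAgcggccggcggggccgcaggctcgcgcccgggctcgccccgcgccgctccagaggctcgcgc
Neither RAB3B nor RAB3C has either run of letters in this window. RAB24 has an AHR element 207 bases and an E-box 30 bases before the start, and RAB6A an AHR element 69 bases before it.

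Of the 59 members, 47 were matched in the promoter table. The AHR element letters occur in 7 of them (14.9%: RAB3A, RAB4B, RAB6A, RAB10, RAB14, RAB24 and RAB41), and in 5.4% of all 15843 protein-coding promoters of that length. Of these 7, RAB6A and RAB24 rose with both ligands, RAB10 fell with SGA315, RAB3A, RAB4B and RAB14 were not called, and RAB41 was not tested. Other matched members rose with both ligands without these letters: RAB3C, RAB5A, RAB9A, RAB17, RAB18, RAB22A, RAB25, RAB29, RAB32 and RAB40A. The E-box letters occur in 5 (10.6%: RAB4A, RAB5A, RAB21, RAB24 and RAB31), against 7.8% of all. RAB5A and RAB24 rose with both ligands, RAB21 and RAB31 rose with SGA360, and RAB4A was not called. The sterol element TCACNCCAC, the class of site used by the transcription factors that respond to low sterol, occurs in 1 (2.1%: RAB4B) against 0.9% of all. A match describes letters only and shows no binding.

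Compared per kb of transcript, the late endosomal RAB7A had the highest level with lovastatin alone, at 135 CPM per kb. It was followed by RAB5C at 107, RAB1A at 87.4, RAB6A at 86.2, RAB13 at 79.7, RAB10 at 67.9, RAB1B at 64.4 and RAB25 at 62.5 CPM per kb, each on the length of the transcript chosen for counting. RAB3B stood at 7.11 CPM per kb and RAB3C at 0.0583. The summed read level of all 59 members was 3379 to 3465 CPM with lovastatin alone, 3333 to 3372 CPM with SGA360 and 3267 to 3298 CPM with SGA315 under TMM scaling. Scaled to totals the order turned, to 3215 to 3279, 3410 to 3477 and 3369 to 3388 CPM, so no direction for the sum can be given.

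Among Rabs of the Golgi and the step from the endoplasmic reticulum (ER) to the Golgi, 10 of 15 members were tested. With SGA360 5 were higher and 3 lower, and with SGA315 6 were higher and 2 lower. That is 80.0% called with each ligand, beside 62.8% and 69.2% of all genes. RAB1A and RAB1B, which drive transport from the ER into the Golgi, fell with both ligands. RAB1B read 126, 135 and 127 CPM with lovastatin alone, 90.8, 92.4 and 84.4 CPM with SGA360, and 88.7, 84.9 and 83.1 CPM with SGA315. Both ligand groups lay wholly below the lovastatin group and overlapped each other. RAB1B had a log2 fold change of -0.53 (SE 0.0375, edgeR adjusted p = 4.21e-20) with SGA360 and -0.59 (SE 0.0383, edgeR adjusted p = 3.50e-22) with SGA315. RAB1A went from 214 ± 4.47 CPM to 176 ± 2.54 and 181 ± 2.00 CPM (SD, n = 3), a log2 fold change of -0.29 and -0.24.

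RAB6A, which serves traffic within and from the Golgi, moved the other way. It read 286, 293 and 299 CPM with lovastatin alone, 340, 337 and 345 CPM with SGA360, and 360, 349 and 370 CPM with SGA315. All 3 groups were apart from each other. RAB6A rose with a log2 fold change of 0.22 (SE 0.0277, edgeR adjusted p = 2.07e-10) and 0.30 (SE 0.0278, edgeR adjusted p = 3.90e-15). RAB2A, which acts at the ER and Golgi, rose from 79.7 ± 1.53 CPM to 91.6 ± 0.770 and 90.5 ± 3.39 CPM (SD, n = 3), named after its values were seen. RAB18, linked to lipid droplets and the ER, went from 140 ± 4.15 CPM to 150 ± 5.31 and 157 ± 8.96 CPM (SD, n = 3). It was called with both ligands, but its rise with SGA360 (log2 fold change 0.10) lost the call with DESeq2 (0.09) and without lovastatin replicate 1 (0.08), lovastatin replicate 2 (0.08) or SGA360 replicate 3 (0.07). Its adjusted p with SGA360 ranged from 4.97e-07 to 0.106 over the alternatives of edgeR and DESeq2.

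RAB2B and RAB43 were called higher with SGA315 only. RAB2B, a second ER and Golgi Rab, stood at 19.5 ± 2.15 CPM with lovastatin alone, 20.0 ± 0.946 CPM with SGA360 and 24.0 ± 0.995 CPM with SGA315 (SD, n = 3). RAB43 stood at 48.5 ± 0.910, 47.7 ± 2.22 and 56.4 ± 0.0719 CPM in the same order. The direct tests between ligands were called for both, at -0.26 (SE 0.0716, edgeR adjusted p = 0.00203) and -0.25 (SE 0.0466, edgeR adjusted p = 8.81e-06) for SGA360 over SGA315. RAB43 shares 88.6% of its exon bases with the readthrough gene ISY1-RAB43, so its reads cannot be assigned to it alone.

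Of the early and recycling endosome Rabs, all 16 were tested. There were 7 higher and 5 lower with SGA360, and 4 higher and 7 lower with SGA315. The shares called were 75.0% and 68.8%, beside 62.8% and 69.2% of all genes. The RAB5 isoforms, which organise fusion at early endosomes, did not move as 1 group. RAB5C read 182, 174 and 183 CPM with lovastatin alone, 151, 146 and 142 CPM with SGA360, and 123, 125 and 114 CPM with SGA315. The groups were fully apart, with SGA315 lowest. The counted transcript of RAB5C shares 47.5% of its exon bases with another gene on the same strand, AC099811.2. For RAB5C the log2 fold change was -0.30 (SE 0.0334, edgeR adjusted p = 7.12e-12) and -0.57 (SE 0.0347, edgeR adjusted p = 1.50e-23), and the ligands differed by 0.28 (SE 0.0354, edgeR adjusted p = 1.11e-09). RAB5B, named after its values were seen, fell from 167 ± 2.83 CPM to 145 ± 1.98 and 146 ± 7.62 CPM (SD, n = 3). RAB5A rose instead, from 67.6, 68.9 and 65.7 CPM to 80.3, 83.1 and 82.7 CPM with SGA360 and 85.3, 85.0 and 86.5 CPM with SGA315. Its groups did not overlap, with log2 fold changes of 0.28 (SE 0.0400, edgeR adjusted p = 5.46e-09) and 0.35 (SE 0.0402, edgeR adjusted p = 1.26e-11). The isoforms were not compared with each other by a test.

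The RAB11 family of recycling endosomes also held both falls and a rise. RAB11A, which serves apical recycling, fell from 161 ± 5.67 CPM to 140 ± 2.48 and 133 ± 1.84 CPM (SD, n = 3), a log2 fold change of -0.20 and -0.27. RAB11B read 53.6, 54.7 and 50.9 CPM with lovastatin alone, 39.0, 40.0 and 41.1 CPM with SGA360, and 43.4, 39.2 and 39.1 CPM with SGA315, at -0.41 (SE 0.0501, edgeR adjusted p = 1.14e-10) and -0.38 (SE 0.0508, edgeR adjusted p = 8.19e-10). Each ligand group was below the lovastatin group, and the ligand groups overlapped. RAB25, the epithelial member of this family, rose from 69.2, 69.1 and 69.8 CPM to 85.6, 85.9 and 90.8 CPM with SGA360 and 85.3, 86.6 and 89.2 CPM with SGA315. The log2 fold change was 0.33 with each (SE 0.0398, edgeR adjusted p = 5.24e-11 with SGA360, and SE 0.0403, edgeR adjusted p = 8.93e-11 with SGA315). Between the ligands it differed by 0.00, with a 95% interval from -0.07 to 0.08, and this sign turned with scaling to totals.

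RAB35, which controls recycling from the plasma membrane, fell with both ligands. It read 75.8, 78.1 and 77.4 CPM with lovastatin alone, 62.3, 60.6 and 55.4 CPM with SGA360, and 55.8, 55.5 and 51.2 CPM with SGA315. Lovastatin libraries were all above the rest, while the ligand groups overlapped at their edges. The log2 fold change was -0.37 (SE 0.0434, edgeR adjusted p = 2.68e-11) and -0.51 (SE 0.0449, edgeR adjusted p = 5.09e-16). Its direct difference between ligands was called (0.14, edgeR adjusted p = 0.0128) but not without SGA360 replicate 1 (0.10), SGA360 replicate 2 (0.13) or SGA315 replicate 3 (0.10), with adjusted p from 0.00216 to 0.122 over all alternatives of edgeR and DESeq2.

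RAB17, an epithelial Rab of apical recycling, stood at 26.1 ± 1.57 CPM with lovastatin alone, 29.5 ± 0.831 CPM with SGA360 and 34.0 ± 2.09 CPM with SGA315 (SD, n = 3). Its log2 fold change was 0.38 (SE 0.0618, edgeR adjusted p = 1.38e-07) with SGA315. With SGA360 it was 0.18 (SE 0.0625, edgeR adjusted p = 0.0102), which lost the call with DESeq2 (0.17), without lovastatin replicate 2 (0.14) and without SGA360 replicate 2 (0.14), the adjusted p ranging from 4.39e-05 to 0.0854. RAB22A, which acts in early endosomal recycling and was named after its values were seen, rose from 99.5 ± 0.672 CPM to 110 ± 1.11 and 129 ± 9.28 CPM (SD, n = 3). RAB14, which links endosomes and the trans-Golgi network, stood at 83.3 ± 4.93, 80.9 ± 4.08 and 81.5 ± 2.99 CPM and was not called. Its log2 fold change was -0.04 (95% interval -0.13 to 0.04) with SGA360 and -0.03 (95% interval -0.11 to 0.06) with SGA315, signs that turned when scaled to totals. With SGA315 its adjusted p ranged from 0.0468 to 0.804 over the alternatives of edgeR and DESeq2, so the absence of a call did not hold throughout.

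RAB31, RAB15 and RAB21, all of the endosomal system, were called higher with SGA360 and were not called higher with SGA315. RAB31 read 15.2, 13.8 and 16.1 CPM with lovastatin alone, 24.9, 25.7 and 23.9 CPM with SGA360, and 15, 15.5 and 19.9 CPM with SGA315. The SGA360 libraries stood above all others, and the SGA315 and lovastatin libraries overlapped. Its log2 fold change was 0.72 (SE 0.0782, edgeR adjusted p = 1.50e-12) with SGA360, and the ligands differed by 0.57 (SE 0.0768, edgeR adjusted p = 4.25e-09). With SGA315 it was 0.15 (edgeR adjusted p = 0.117), which was called when scaled to totals (0.27) and without SGA315 replicate 1 (0.21), with adjusted p from 0.0044 to 0.853.

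RAB15, which acts at recycling endosomes, read 134, 141 and 141 CPM with lovastatin alone, 169, 164 and 167 CPM with SGA360, and 135, 128 and 131 CPM with SGA315. The SGA360 group was apart and above, and the others overlapped. It rose with SGA360 by 0.26 (SE 0.0326, edgeR adjusted p = 1.57e-10), and the ligands differed by 0.35 (SE 0.0330, edgeR adjusted p = 5.58e-14). Its call with SGA315, -0.08 (SE 0.0340, edgeR adjusted p = 0.0261), did not hold without lovastatin replicate 2 (-0.07), lovastatin replicate 3 (-0.08) or SGA315 replicate 2 (-0.08), and the sign turned when scaled to totals (0.04), with adjusted p from 0.00401 to 0.313. RAB21, an endosomal Rab of integrin traffic named after its values were seen, stood at 73.6 ± 1.81 CPM with lovastatin alone, 85.6 ± 2.27 CPM with SGA360 and 72.3 ± 1.71 CPM with SGA315 (SD, n = 3). The ligands differed by 0.24 for it (SE 0.0398, edgeR adjusted p = 6.80e-07). With SGA315 its log2 fold change of -0.03 turned to 0.09 and was called when scaled to totals (edgeR adjusted p = 0.0381). Of the other members of this group, RAB4A and RAB4B, both of rapid recycling, were not called in any comparison. RAB4B shares 88.9% of its exon bases with the readthrough gene MIA-RAB4B and 67.7% with RAB4B-EGLN2, both on the same strand.

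**Figure D2:**
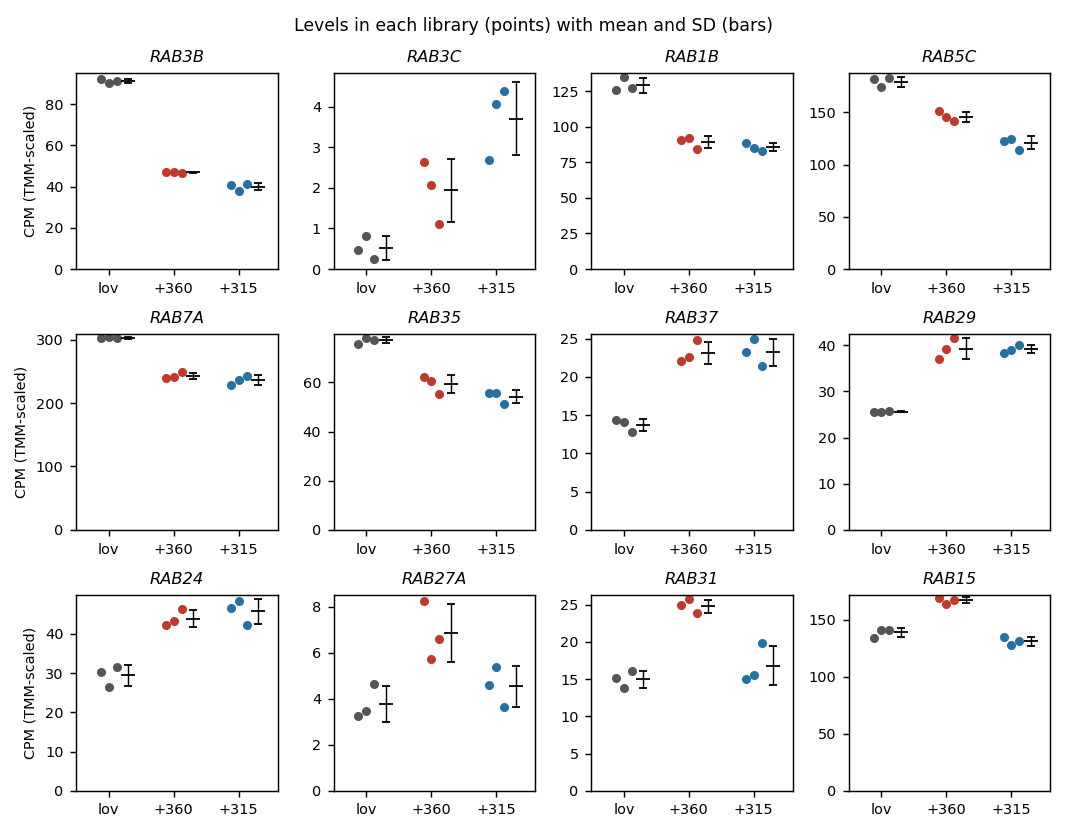
Level of 12 Rab genes in each library in CPM on a linear axis that starts at 0, for lovastatin alone (grey), with SGA360 (red) and with SGA315 (blue). Points are libraries and the black bars show the mean and SD of 3. RAB3B and RAB1B stand lower with both ligands, RAB37, RAB29 and RAB24 higher with both, and RAB31 and RAB15 highest with SGA360.

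For late endosomes, lysosomes, autophagy and lysosome-related organelles, 7 of 8 members were tested, with 4 higher and 1 lower with each ligand. This is 71.4% called with each, beside 62.8% of all genes with SGA360 and 69.2% with SGA315. RAB7A, the main Rab of late endosomes, was the 1 that fell. It read 302, 305 and 302 CPM with lovastatin alone, 240, 241 and 249 CPM with SGA360, and 228, 236 and 243 CPM with SGA315. Every ligand library lay below every lovastatin library, and the ligand groups overlapped. For RAB7A the log2 fold change was -0.32 (SE 0.0284, edgeR adjusted p = 8.35e-16) and -0.37 (SE 0.0287, edgeR adjusted p = 2.66e-18).

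RAB29, which acts at the trans-Golgi and on stressed lysosomes, read 25.5, 25.6 and 25.7 CPM with lovastatin alone. It read 37.0, 39.1 and 41.6 CPM with SGA360 and 38.3, 38.9 and 40.1 CPM with SGA315. The rise was 1.53-fold with each ligand (log2 fold change 0.61, SE 0.0580, edgeR adjusted p = 1.21e-14 with SGA360, and 0.61, SE 0.0589, edgeR adjusted p = 1.63e-14 with SGA315). The difference between the ligands was 0.00 with a 95% interval from -0.10 to 0.11, and its sign turned with the scaling.

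RAB24, an unusual Rab linked to autophagy, read 30.2, 26.4 and 31.5 CPM with lovastatin alone, 42.2, 43.2 and 46.4 CPM with SGA360, and 46.5, 48.3 and 42.3 CPM with SGA315. The ligand groups stood above the lovastatin group and overlapped each other. For RAB24 the log2 fold change was 0.57 (SE 0.0588, edgeR adjusted p = 2.91e-13) and 0.64 (SE 0.0591, edgeR adjusted p = 3.63e-15). The counted transcript of RAB24 shares 50.9% of its exon bases with the neighbour MXD3 on the same strand. MXD3 itself fell from 164 to 126 and 124 CPM, and the lowest entry of RAB24 held 98.3% of the count of its highest. Entries of RAB24 can hold the same reads, so these counts are not independent. RAB32, which serves lysosome-related organelles and mitochondria, rose from 6.38 ± 0.715 CPM to 10.3 ± 1.08 and 8.91 ± 0.670 CPM (SD, n = 3), a log2 fold change of 0.67 and 0.47. RAB9A, which returns receptors from late endosomes to the Golgi and was named after its values were seen, stood at 21.8 ± 2.62, 24.5 ± 0.499 and 29 ± 1.26 CPM (SD, n = 3). Its log2 fold change was 0.41 with SGA315 (SE 0.0685, edgeR adjusted p = 3.66e-07). With SGA360 it was 0.16 (edgeR adjusted p = 0.0379), a call that ended under 11 of the 16 alternatives, among them DESeq2, RLE scaling and the omission of 7 of the 9 libraries in turn (0.10 to 0.17), with adjusted p from 0.000469 to 0.247.

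The Rabs of exocytosis and transport to the surface, the RAB3 group included, had 12 tested members. With SGA360 4 were higher, 2 lower and 6 not called, and with SGA315 4 were higher, 3 lower and 5 not called. The share called with SGA360 was below the 62.8% of all genes. With SGA315 it was 58.3%, beside 69.2% of all genes. RAB8A, which brings vesicles to the apical surface and the cilium, fell from 69.0 ± 2.92 CPM to 54.0 ± 1.93 and 49.4 ± 1.4 CPM (SD, n = 3). This was a log2 fold change of -0.35 (SE 0.0443, edgeR adjusted p = 2.33e-10) and -0.48 (SE 0.0458, edgeR adjusted p = 9.02e-15). The ligand difference of 0.13 was called (edgeR adjusted p = 0.0221) but not with DESeq2 (0.14), or without SGA360 replicate 1 (0.10), SGA315 replicate 1 (0.11) or SGA315 replicate 3 (0.12), with adjusted p from 0.0138 to 0.158. RAB10, a Rab of basolateral delivery, stood at 240 ± 9.56, 243 ± 3.37 and 212 ± 4.51 CPM. It fell with SGA315 by 0.18 on the log2 scale (SE 0.0303, edgeR adjusted p = 3.51e-07), lost that call when scaled to totals (-0.06), and with SGA360 its 0.02 was called only when scaled to totals (0.13) among the alternatives run. RAB13, linked to tight junctions, stood at 93.8 ± 2.84, 98.5 ± 2.79 and 108 ± 2.68 CPM and rose with SGA315 by 0.20 (SE 0.0374, edgeR adjusted p = 2.42e-06). With SGA360 it was at 0.07 and not called (edgeR adjusted p = 0.109), with adjusted p from 2.33e-05 to 0.428 over the alternatives of edgeR and DESeq2. RAB13 shares 58.0% of the exon bases of its counted transcript with another gene on the same strand, AL358472.6.

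RAB37, a Rab of secretory granules, read 14.3, 14.1 and 12.8 CPM with lovastatin alone, 22.1, 22.6 and 24.8 CPM with SGA360, and 23.3, 24.9 and 21.4 CPM with SGA315. The ligand groups overlapped each other and stood wholly above the lovastatin group. The log2 fold change was 0.75 (SE 0.0773, edgeR adjusted p = 2.94e-13) and 0.76 (SE 0.0784, edgeR adjusted p = 1.60e-13). Against 1.5-fold it passed with SGA315 (edgeR glmTreat adjusted p = 0.0329) and not with SGA360 (edgeR glmTreat adjusted p = 0.0794), where it passed when scaled to totals (0.00183). The call with SGA315 ended under RLE scaling (0.0564), with no filter (0.0708), and without lovastatin replicate 3 (0.249), SGA360 replicate 1 (0.0502), SGA360 replicate 2 (0.0510), SGA315 replicate 1 (0.0852) or SGA315 replicate 2 (0.227), these values being adjusted p of edgeR glmTreat. RAB26, another granule Rab, was scarce at 0.936 ± 0.387, 1.83 ± 0.155 and 1.60 ± 0.461 CPM (SD, n = 3). It was called with SGA360 (log2 fold change 1.01, SE 0.279, edgeR adjusted p = 0.00130). With SGA315 (0.80, edgeR adjusted p = 0.0142) the call ended with DESeq2 (0.77), without lovastatin replicate 3 (0.52) and without SGA315 replicate 3 (0.60), with adjusted p from 0.0034 to 0.146.

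RAB27A and RAB27B dock secretory granules and exosome-bearing endosomes. RAB27A read 3.23, 3.45 and 4.66 CPM with lovastatin alone, 8.25, 5.73 and 6.60 CPM with SGA360, and 4.60, 5.39 and 3.63 CPM with SGA315. The SGA360 libraries were above all others. RAB27A rose with a log2 fold change of 0.85 (SE 0.149, edgeR adjusted p = 1.11e-06) with SGA360, and the ligands differed by 0.59 (SE 0.144, edgeR adjusted p = 0.000539). With SGA315 it was 0.26 (edgeR adjusted p = 0.157). That value was called when scaled to totals (0.38), without lovastatin replicate 3 (0.44) and without SGA315 replicate 3 (0.39), with adjusted p from 0.0363 to 0.621. Its span overlaps that of PIGBOS1, whose own change was 0.54 with SGA360 and 0.91 with SGA315. The counted transcript of RAB27A was not among those found to share exon bases with another gene. RAB27B, at 1.56 ± 0.426, 1.92 ± 0.516 and 1.75 ± 0.50 CPM, was not called, with 95% intervals from -0.22 to 0.78 and from -0.37 to 0.67.

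Of the Rabs of the cilium and other or little-studied roles, 6 of 7 were tested. With SGA360 3 were higher and 3 not called, and with SGA315 4 were higher and 2 not called. The share called with SGA360 was below the 62.8% of all genes. With SGA315 it was 66.7%, beside 69.2% of all genes. Of all genes, 31.4% were higher and 31.4% lower with SGA360, and 36.0% higher and 33.2% lower with SGA315. RAB23, a ciliary regulator of Hedgehog signalling, stood at 23.9 ± 1.61, 28 ± 2.69 and 22.7 ± 0.435 CPM (SD, n = 3). It was called with SGA360 (0.22, edgeR adjusted p = 0.00360), but not without lovastatin replicate 1 (0.17) or SGA360 replicate 1 (0.13), with adjusted p from 1.7e-05 to 0.131. RAB23 shares 58.8% of its exon bases with BAG2 on the opposite strand, and without strand, whose handling is not given in the sources used here, reads of the pair cannot be told apart. BAG2 fell with both ligands (-0.19 and -0.41). Smaller shares of exon bases lie opposite another gene in other members. Among these were RAB8A (36.0%), RAB4B (32.3%), RAB1B (29.3% with AP001107.2), RAB40A (27.5%) and RAB3D (21.2%), to which the same limit applies. RAB40B, of a subfamily that carries a SOCS box, a docking module for ubiquitin ligases, stood at 6.34 ± 0.512, 6.68 ± 1.04 and 9.29 ± 0.710 CPM. It rose with SGA315 by 0.55 (SE 0.117, edgeR adjusted p = 3.91e-05), and the ligands differed by -0.49 (SE 0.115, edgeR adjusted p = 0.000305).

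RAB40A, of the same subfamily and near 1 CPM, rose with SGA315 (1.03, SE 0.283, edgeR adjusted p = 0.00106). With SGA360 it was 0.66 (edgeR adjusted p = 0.0453), a call that did not hold with DESeq2 (0.65), with no filter (0.65) or, RAB40A itself having 1 entry, with the lowest accession taken for every gene (0.65). Nor did it hold without lovastatin replicate 1 (0.52), lovastatin replicate 2 (0.72), lovastatin replicate 3 (0.72), SGA360 replicate 1 (0.41) or SGA315 replicate 2 (0.65), the adjusted p of edgeR and DESeq2 ranging from 0.0178 to 0.313.

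When the ligands were compared with each other, 12 Rab genes were higher with SGA360 than with SGA315, 10 were lower and 29 were not called. Of all genes, 42.7% were called here, 21.8% higher and 20.9% lower, and 43.1% of the Rab genes were. The largest called differences were RAB27A, RAB31, RAB15 and RAB23 on the SGA360 side (0.59, 0.57, 0.35 and 0.30) and RAB3C, RAB40B, RAB2B and RAB43 on the SGA315 side (-0.87, -0.49, -0.26 and -0.25). RAB6A was also called, at -0.08, though not with DESeq2 (-0.07) or without SGA360 replicate 1 (-0.08), SGA360 replicate 2 (-0.07), SGA315 replicate 1 (-0.08) or SGA315 replicate 3 (-0.06), with adjusted p from 0.00401 to 0.0937 (edgeR and DESeq2). No Rab gene passed the 1.5-fold test of edgeR glmTreat between the ligands, beside 1.25% of all genes (0.511% higher and 0.736% lower), and 1 of 51 Rab genes had an unadjusted p under 0.05 in it, as 2.98% of all genes did. Doses and times of the ligands were the same, and this 1 pair of compounds was compared.

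**Figure D3:**
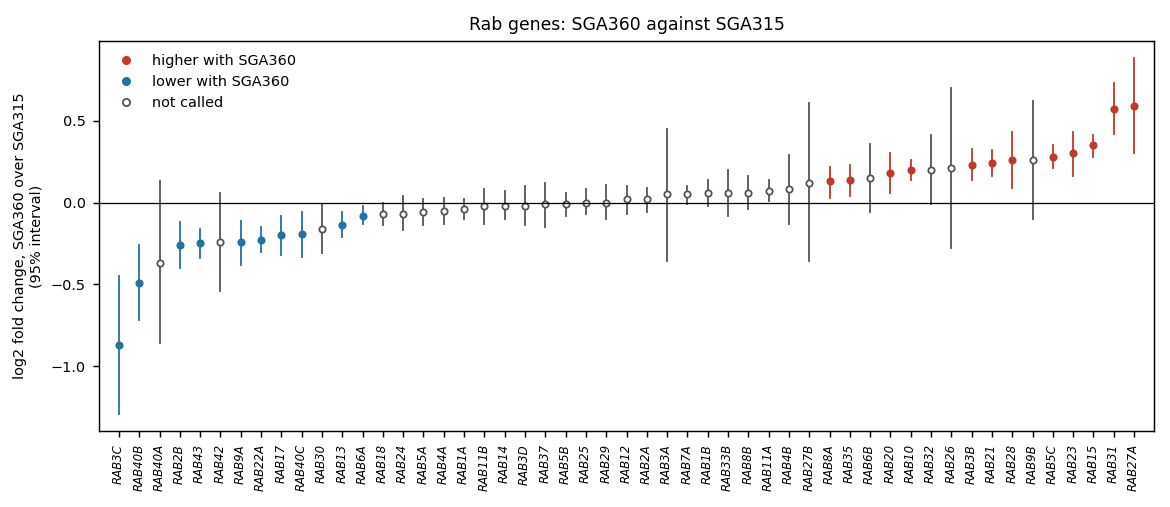
Log2 fold change of SGA360 over SGA315 for the 51 tested Rab genes in order of size, with 95% intervals. Red points are called higher with SGA360, blue points lower, and open points are not called. RAB27A and RAB31 lie at the right end and RAB3C at the left end, and most intervals of the genes between touch or lie near 0.

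Genes that load, switch and read Rabs were followed through lists drawn up by known function. Of 7 genes for prenylation and membrane cycling, 1 was higher and 2 were lower with SGA360, and 5 were higher and 1 lower with SGA315, with medians of 0.05 and 0.14. That is 42.9% and 85.7% called, beside 62.8% and 69.2% of all genes. CHM, the Rab escort protein that presents new Rabs for prenylation, rose from 34.6 ± 1.65 CPM to 43.6 ± 0.805 and 49.0 ± 1.08 CPM (SD, n = 3), a log2 fold change of 0.33 and 0.50. Its homologue CHML fell by 0.16 and 0.23, calls that ended when scaled to totals (-0.05 and -0.11). RABGGTA, the alpha subunit of the transferase, stood at 16.7 ± 1.12, 17.3 ± 0.334 and 21.2 ± 1.15 CPM and rose with SGA315 (0.35, SE 0.0750, edgeR adjusted p = 3.90e-05). RABGGTB, the beta subunit, also rose with SGA315 (0.14) and was at 0.09 with SGA360, which was called when scaled to totals (0.20), with the replicate block, with the compared groups alone (0.09), and without SGA360 replicate 3 (0.12) or SGA315 replicate 3 (0.09).

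GDI2, which extracts Rabs from membranes, was called in opposite directions. It stood at 793 ± 21.0 CPM with lovastatin alone, 698 ± 14.2 CPM with SGA360 and 856 ± 23.4 CPM with SGA315 (SD, n = 3). Its log2 fold change was -0.18 (SE 0.0270, edgeR adjusted p = 1.89e-08) with SGA360 and 0.11 (SE 0.0268, edgeR adjusted p = 0.000259) with SGA315. The difference between ligands was -0.29 (SE 0.0269, edgeR adjusted p = 1.32e-14). RABAC1, a Rab acceptor, was called with SGA315 (0.16), a call lost with RLE scaling, with DESeq2 and without lovastatin replicate 1, lovastatin replicate 3, SGA315 replicate 1 or SGA315 replicate 2 (0.12 to 0.14). RABIF was not called, except with SGA315 when scaled to totals (0.23).

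Exchange factors, which turn Rabs on, were called higher in 17 and lower in 7 of 36 with SGA360 and higher in 23 and lower in 4 with SGA315. The shares called were 66.7% and 75.0%, near the 62.8% and 69.2% of all genes. Their medians were 0.13 and 0.23, beside 0.02 and 0.04 over all genes. ALS2CL, related to an exchange factor for RAB5, rose from 4.93 ± 0.389 CPM to 11.3 ± 1.34 and 12.6 ± 1.92 CPM (SD, n = 3), by 1.18 and 1.35 on the log2 scale. RAB3IL1, a relative of the RAB8 exchange factor, rose from 12 ± 1.1 CPM to 22.0 ± 0.974 and 22.4 ± 0.615 CPM (SD, n = 3), by 0.87 and 0.90. DENND4A, an exchange factor for RAB10, rose by 0.50 and 0.84. HPS4, part of the exchange factor for RAB32 and RAB38, rose by 0.41 and 0.64. SBF1, at 128 ± 3.7, 102 ± 1.47 and 109 ± 3.17 CPM, fell by 0.33 and 0.23. Without SGA315 replicate 2, 7 exchange factors were lower with SGA315.

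GTPase activators, which turn Rabs off, were called higher in 12 and lower in 8 of 34 with SGA360 and higher in 17 and lower in 9 with SGA315, with medians of 0.03 and 0.08. The shares called were 58.8% and 76.5%, beside 62.8% and 69.2% of all genes. TBC1D15, an activator that acts on RAB7, rose from 38.3 ± 1.63 CPM to 54.2 ± 2.77 and 67.0 ± 1.07 CPM (SD, n = 3), by 0.50 and 0.80. EVI5L rose by 0.86 and 0.85. TBC1D4, known from insulin-driven traffic of a glucose transporter, fell from 350 ± 0.289 CPM to 255 ± 3.75 and 297 ± 1.73 CPM (SD, n = 3), by 0.46 and 0.24. TBC1D7, which also sits in the TSC complex, fell with SGA315 by 0.82 and with SGA360 by 0.17, the latter not called when scaled to totals (-0.05). TBC1D2 rose with SGA315 by 0.81 and was not called with SGA360 (0.16), though it was when scaled to totals (0.27).

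Of 38 effectors, 17 were higher and 13 lower with SGA360, and 19 were higher and 8 lower with SGA315, with medians of 0.07 and 0.12. The shares called were 78.9% and 71.1%, beside the same 62.8% and 69.2%. Changes in the list ran from -1.24 to 0.80 with SGA360 and from -1.34 to 1.09 with SGA315. SYTL4 stood at 6.90, 2.96 and 2.74 CPM with lovastatin alone, SGA360 and SGA315. SYTL1 stood at 6.88, 12.1 and 14.7 CPM in the same order, both named after their values were seen. OPTN, an autophagy receptor that binds RAB8, rose from 135 ± 7.60 CPM to 199 ± 4.53 and 236 ± 10.8 CPM (SD, n = 3), by 0.56 and 0.81. USO1, the Golgi tether that binds RAB1, rose from 151 ± 4.0 CPM to 187 ± 2.71 and 225 ± 7.33 CPM (SD, n = 3), by 0.30 and 0.57, while RAB1A and RAB1B fell. The Golgi coiled-coil proteins GCC2 and GOLGA2 rose with SGA315 by 0.58 and 0.43. With SGA360 GCC2 rose by 0.16, and GOLGA2, at 0.06, was called only when scaled to totals (0.18) among the alternatives run. EHBP1L1, which binds RAB8, fell by 0.67 and 0.52, and PLIN3, a lipid droplet coat protein also described as a RAB9 effector, fell by 0.47 and 0.43.

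Between the ligands, exchange factors were lower with SGA360 in 11 and higher in 2, activators lower in 12 and higher in 4, effectors lower in 11 and higher in 5, and the prenylation list lower in 3. The shares called were 36.1%, 47.1%, 42.1% and 42.9% in that order, beside 42.7% of all genes. DESeq2 called fewer, with 6 exchange factors, 7 activators and 7 effectors lower with SGA360 and 1 exchange factor higher. Higher counts here also moved when a library was left out, for activators to 2 without SGA360 replicate 1, and for effectors to 3 without SGA360 replicate 1, SGA315 replicate 1 or SGA315 replicate 2. For exchange factors they were 1 to 3, the ends reached without SGA360 replicate 2 or SGA360 replicate 3.

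**Figure D4:**
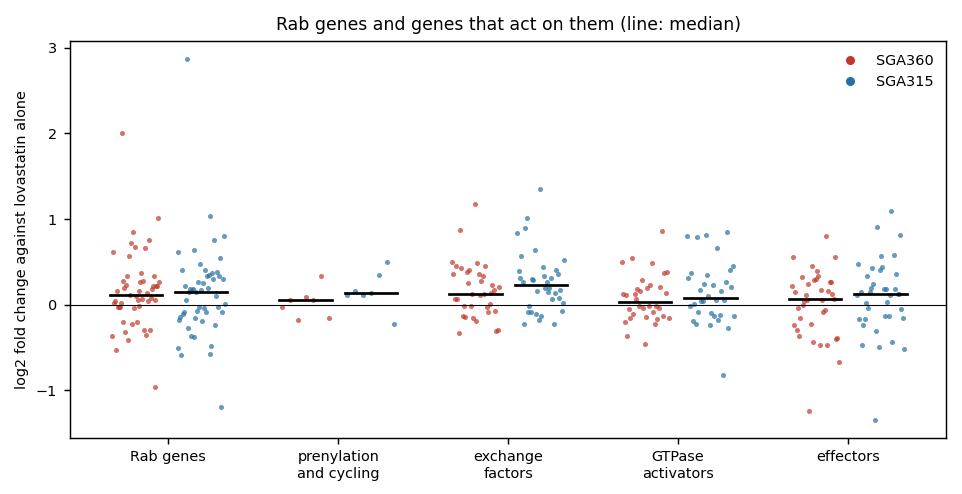
Log2 fold change against lovastatin alone of the tested Rab genes and of tested genes in 4 lists that act on them, with SGA360 (red) and SGA315 (blue). Each point is a gene and each black line the median, which is 0.13 and 0.23 for exchange factors and 0.11 and 0.15 for Rab genes.

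The 8 members under the filter were RAB6D with 79 counts over all libraries, RAB19 with 66, RAB36 with 50, RAB41 with 31, RAB38 with 21, RAB39B with 19, RAB34 with 16 and RAB33A with 15. RAB6D read 6 to 12 counts a library and RAB19 read 5 to 13. None of the 8 was tested. RAB6D is a near-identical copy of RAB6A, and its reads are uncertain.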

How the data were processed

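Polyadenylated RNA of 9 Caco-2 libraries was sequenced. Deposited values are raw counts per RefSeq transcript, whole numbers that the authors made without normalization. Per the submitters' processing notes, the tools named are TopHat2 2.0.13 and HTSeq 0.5.4p3, and the build hg19; strand handling is not given in the sources used here. Of 65325 entries, 64346 took a symbol from the RefSeq table of GRCh38.p14 and 565 from GENCODE 29; 414, with 0.22% of counts, matched neither and were left out. Each gene was represented by its entry with the highest total, and 65 genes with counts identical to another gene were dropped.

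Counts were fitted in R 4.3.3 with edgeR 4.0.16 (TMM scaling, filterByExpr with a minimum count of 10 and total of 15, 1 coefficient per group, quasi-likelihood F test, Benjamini-Hochberg adjustment over 14680 genes); glmTreat tested against 1.5-fold on the same fit. Standard errors are the fold change over the root of F. CPM were scaled by TMM library sizes. The procedure was tested on simulated data. The 16 alternatives included DESeq2 1.42.0, other scaling, no filter and each library left out. The 95% intervals come from the edgeR fit; the limit from counts covers counting error only.

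Members, role groups and companion lists were chosen with earlier results of these data known. Genes were named by rule: the largest called changes (at least 1.5-fold, or the 4 largest in a direction), opposite calls, a fixed set of 14 well-known members, members under the filter, and in each list the 3 smallest p per comparison. RAB7B was not analysed here, and 1 gene of the prenylation list is not reported here and is in none of its counts.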

Additional observations from a re-analysis of the deposited data

How the results depend on the processing

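Counts of Rab genes called higher or lower stayed within 1.5 times under all 16 alternatives, and only the 1.5-fold test moved further. Rab genes past 1.5-fold higher with SGA360 numbered 5 when scaled to totals and 1 to 2 with a library left out. With SGA315 they numbered 4 when scaled to totals, 1 with RLE scaling, 1 with no filter and 1 to 2 with a library left out. Scaling to totals also raised the median of all genes, from 0.02 to 0.14 with SGA360 and from 0.04 to 0.16 with SGA315. The share of all genes past 1.5-fold under that scaling is not given here. The replicate block left the Rab counts at 23 higher and 11 lower, 22 and 13, and 12 and 10. Of 195 changes of named genes, 185 to 194 kept direction and call under the 6 alternatives that neither scaled to totals nor left a library out, 168 did when scaled to totals, and 182 to 187 with a library left out. Same-numbered libraries did not deviate together (correlations from -0.024 to 0.046), so the numbers were not taken to pair them. In the prenylation list with SGA360, the higher count of 1 became 2 with the replicate block or the compared groups alone and 4 when scaled to totals, and 1 to 2 with a library left out.

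Scaled to totals, lower counts with SGA360 became 1 (prenylation), 2 (exchange factors) and 3 (activators), and 20 activators were higher; with SGA315 the lower counts became 0, 1 and 2. DESeq2 gave 6 exchange factors, 7 activators and 7 effectors lower with SGA360 than with SGA315, and 1 exchange factor higher. With a library left out, higher counts between the ligands ranged from 1 to 3 for exchange factors, 2 to 4 for activators and 3 to 5 for effectors. Lower counts with SGA315 ranged from 4 to 7 for exchange factors.

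Signs turned when scaled to totals for RAB14 (0.07), RAB43 (0.09), DENND4C (0.05) and RABIF (0.09) with SGA360. With SGA315 they turned for RAB14 (0.09), RAB15 (0.04), RAB21 (0.09) and RAB23 (0.04), and between the ligands for RAB25 (-0.00) and RAB29 (-0.00). The cause was not tested.

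With a library left out, some signs turned. With SGA360 the ranges were -0.02 to 0.04 for RAB10, -0.07 to 0.09 for RAB2B, -0.03 to 0.17 for RAB40B, -0.09 to 0.12 for RABAC1, -0.02 to 0.09 for RABGGTA and -0.15 to 0.02 for RABIF. With SGA315 they were -0.08 to 0.01 for RAB14, -0.08 to 0.37 for RAB27B and -0.01 to 0.16 for RABIF. Between the ligands they were -0.05 to 0.03 for RAB11B, -0.05 to 0.02 for RAB14, -0.02 to 0.02 for RAB25, -0.11 to 0.34 for RAB27B, -0.03 to 0.04 for RAB29, -0.01 to 0.05 for RAB2A, -0.07 to 0.04 for RAB37, -0.07 to 0.13 for RAB3A, -0.06 to 0.03 for RAB3D, -0.04 to 0.03 for RAB5B, -0.07 to 0.12 for EVI5L and -0.06 to 0.01 for RAB3IL1. None of these values was called.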

Other observations

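The scarce Rab genes were mostly called higher, while the abundant ones were more evenly divided, a split made at 50 CPM after the data were seen. Of 23 members with a mean of at least 50 CPM, 8 were higher and 9 lower with SGA360, and 8 higher and 11 lower with SGA315. Of 28 members under 50 CPM, 15 were higher and 2 lower with SGA360, and 14 higher and 2 lower with SGA315. In the whole table the scarce genes were also called higher more often than lower, and the abundant ones lower more often than higher. Among its 4887 genes of at least 50 CPM, 1327 were higher and 2511 lower with SGA360, and 1511 and 2524 with SGA315. Among its 9793 genes under 50 CPM, 3281 were higher and 2094 lower with SGA360, and 3777 and 2349 with SGA315.

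Where a tested Rab gene had several transcript entries, the lowest entry held at least 85.3% of the count of the highest and changes differed by at most 0.06 on the log2 scale, apart from RAB9B. Its lowest entry held 2.98% of the highest, and its entries differed by up to 1.82. Entries of a gene can hold the same reads, so the closeness of the others is not independent support for a change.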
